A study of Mus musculus with 6 samples.

Results

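The baseline transcriptome of wild-type granulocyte/macrophage progenitors (GMPs) was described from the 2 wild-type (WT) arrays of a series of 6. The arrays were chosen by their sample titles alone, and no measured value entered the choice. The cells came from the bone marrow of BL6 mice. The sort kept KIT-positive, CD34-positive cells with high Fc gamma receptor II/III, and removed any with lineage antigens, the interleukin-7 receptor or Sca1. WT replicate 1 came from a male mouse aged 12 weeks and WT replicate 2 from a female mouse aged 19 weeks. Sex, age and the single mouse therefore cannot be told apart in any difference between the arrays. Both mice were wild type and the labels name no treatment. The 4 arrays of IRF8 KO and IRF4/8 DKO mice were not compared with them. With 1 mouse on each side no difference between the WT arrays can be tested, so differences are given by their size, with no p-value.

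GMPs are bone marrow progenitors that give rise to neutrophils and monocytes. As they commit to the neutrophil path they first load azurophil granules with myeloperoxidase and serine proteases, and at later stages make secondary and tertiary granule proteins such as lactoferrin and gelatinase. The transcription factors PU.1, C/EBP alpha, GFI1 and IRF8 are known to set the balance between the granulocyte and monocyte fates.

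A gene was represented by its probe set with the highest mean signal on the WT arrays, where signal is the deposited intensity. Median signal over all 45037 probe sets was 45.3 on replicate 1 and 41.7 on replicate 2, and the highest signals were 16563 and 16130. Signals of different probe sets also depend on how well their probes bind, so ranks within an array order signals and not transcript numbers. The table holds no detection calls. A background level was therefore taken as the 95th percentile of 153 probe sets for olfactory receptors and for genes of other organs, which was 60.9 on replicate 1 and 60.6 on replicate 2. Of 18193 genes, 9266 (50.9%) lay above this level on both arrays, 585 (3.22%) on replicate 1 alone, 287 (1.58%) on replicate 2 alone and 8055 on neither. With a stricter level, the 99th percentile of the same probe sets, 5854 genes lay above it on both arrays. Olfactory receptor signals reached at most 31.4 on replicate 1 and 41.3 on replicate 2, so genes of other organs set both levels. Some of these genes read high on these arrays, such as Mbp at 2105 and 1302. The stricter level is therefore no measure of noise alone. Where the stricter level changed a list's count by over 1.5 times, that count is given after the main one as the strict count. Each list count is to be read beside 50.9% of all genes, and each strict count beside 5854 of 18193 genes. A gene at or below the main level is called low here, which does not show that its transcript was absent.

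All 6 marker genes of GMPs lay above the background level on both arrays, against 50.9% of all genes. The myeloperoxidase gene Mpo read 12946 on replicate 1 and 14581 on replicate 2, with a mean of 13764 ± 1156 (SD, n = 2), and ranks of 9 and 4 among all genes. The neutrophil serine protease gene Ctsg read 9049 and 11628, Elane, which codes for neutrophil elastase, 7434 and 8185, and the proteinase 3 gene Prtn3 4983 and 6725. These granule genes were all higher on replicate 2, by at most 0.43 on the log2 scale. The stem cell factor receptor gene Kit read 2170 and 1680, and Cd34 1747 and 1401, both higher on replicate 1. The sort's other positive markers were also present. Fcgr3, an activating IgG receptor gene, read 1090 and 1259, and Fcgr2b, the inhibitory one, 512 and 770. Il7r, which the sort excluded, was low at 6.04 and 26.1. Of 6 measured genes of common lineage antigens, the T cell genes Cd3e, Cd4, Cd5 and Cd8a and the myeloid integrin gene Itgam were low on both arrays, between 9.57 and 47.5. Ptprc, the gene of the pan-leukocyte antigen CD45, read 4178 and 4346. Of 2 listed genes that the sort excluded, 1 was measured, Il7r. The markers measured here thus matched the labelled cell type, but the sort had chosen the cells by several of them. Genes of other lineages with clear signals are given below.

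**Figure D1:**
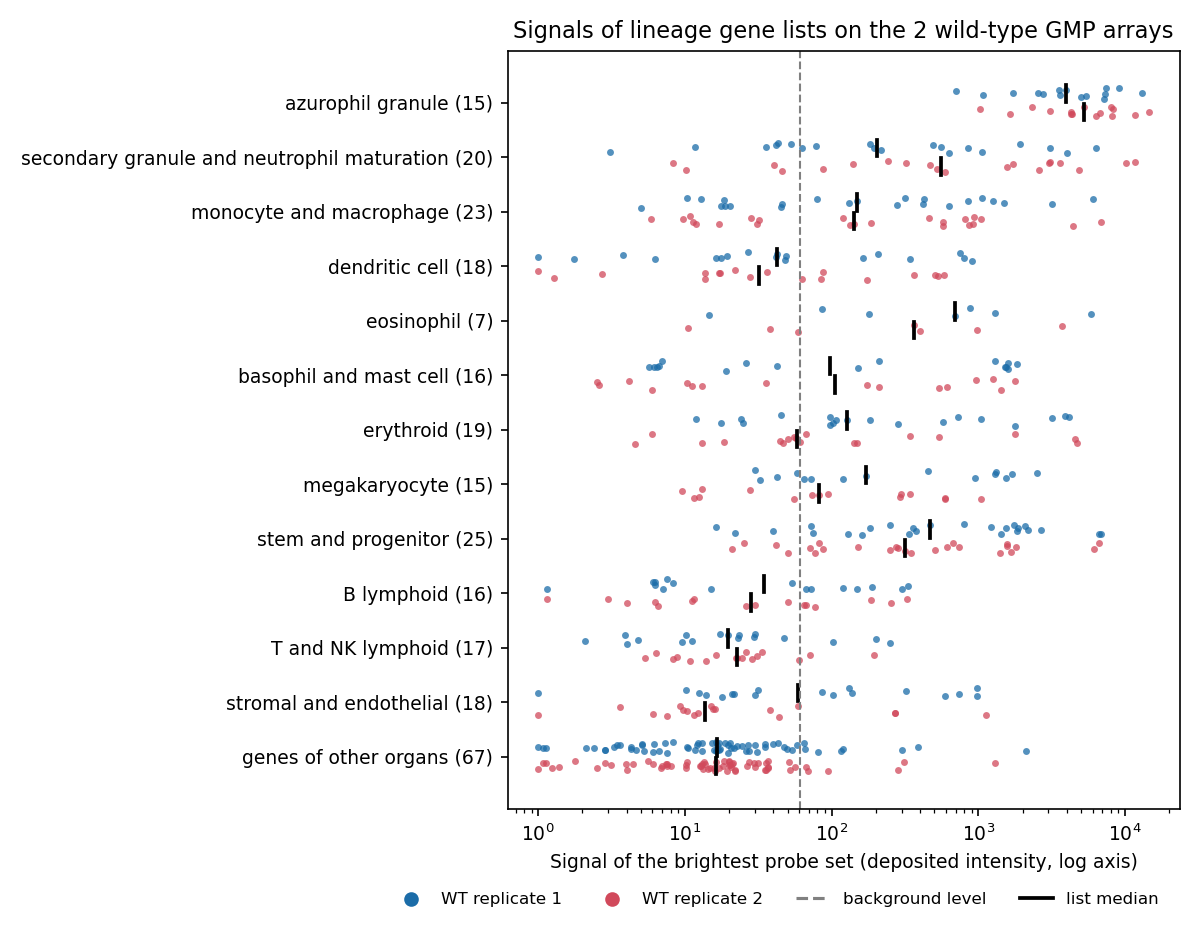
Signal of the brightest probe set of each measured member of 13 gene lists (number of members in brackets) on WT replicate 1 and WT replicate 2, on a log axis, with list medians as black bars and the background level of 60.9 and 60.6 as a dashed line. All members of the azurophil granule list lie to the right of the line, while the medians of the B lymphoid, T and NK lymphoid and dendritic cell lists lie to its left on both arrays.

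The highest signals came from genes of protein synthesis, chromatin and the cytoskeleton, together with the granule genes. By the mean percentile of both arrays the nucleolar histone chaperone gene Npm1 came first, with 14079 and 15059, while on replicate 1 alone Hmgn1 lay above it at 14122. Next came Pebp1, a regulator of RAF kinase, with 13906 and 14817. Ran, the nuclear transport GTPase gene, read 13880 and 14129. Of the 25 leading genes 9 coded for ribosomal proteins (Rps29, Rpsa, Rps9, Rps3, Rps20, Rps28, Rpl13a, Rpl38 and Rpl4), with means up to 13826 for Rps29. The others were the tubulin genes Tubb4b and Tuba4a, the actin gene Actb, the actin-binding thymosin gene Tmsb10, the splicing genes Prpf19 and Hnrnpa2b1, the nucleosome-binding gene Hmgn1, the chaperone gene Hspa8, Atp5a1 of ATP synthase, Atp6ap2 of the vacuolar proton pump, the 14-3-3 gene Ywhae and the RNA-binding gene Serbp1. Between the arrays these 25 genes differed by at most 1.21-fold. Each place in this order rests on the brightest probe set of the gene. For Tubb4b another probe set read 1531 and 2287, and the rest were low on both arrays. Other Prpf19 probe sets read 8272 and 9527, and 8181 and 9594, but also 34.8 and 62.9, and 60.3 and 106.8.

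The 100 genes with the highest signal on each array shared 78 members. Ribosomal protein genes made up 17 of the 78 (21.8%), against 0.313% of all genes, and genes of hnRNPs and splicing factors 8 (10.3%), against 0.258%. Translation factors added 4, among them the elongation factor genes Eef1a1, Eef1b2 and Eef1d. Mpo and Ctsg were the members of the azurophil granule list among the 78. Of the ribosomal protein list 30 of 32 measured genes were above the background level on both arrays. The exceptions Rpl37, at 37.0 and 28.7, and Rps16, at 12.6 and 2.65, were measured here by 1 probe set each. Of 6022 genes with several probe sets and at least 1 of them above background on both arrays, 54.4% also had a probe set that was not, so probe sets of a gene often differed in this respect.

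The azurophil granule list was high as a group. Besides genes of granule proteins it holds other myeloid genes, such as Ms4a3, Plac8 and Igsf6. All 15 measured members lay above the background level on both arrays, with a median percentile of 97.8 on replicate 1 and 98.4 on replicate 2. Besides the markers above, Srgn, the granule proteoglycan serglycin gene, read 7284 and 8245, and Plac8 read 7150 and 7989. The tetraspan gene Ms4a3 read 3979 and 6286, and the lysozyme genes Lyz1 and Lyz2 read 3517 and 4315, and 2755 and 4248. Near-identical sequences of the lysozyme genes make their separate signals uncertain. Ctsc, the cathepsin that activates these serine proteases, read 1080 and 1644. The list was higher on replicate 2 in 14 of 15 members, with a median log2 difference of 0.29, against -0.04 over all genes. Other lists of high signal leaned the same way. The housekeeping list was higher there in 13 of 14 members, with a median of 0.25, and the ribosomal protein list in 24 of 32, with 0.16. The lean was thus not particular to granule genes. In the azurophil granule list Igsf6 was the exception, at 5447 and 5266. No member differed over 2-fold, against 1.58% of all genes higher on replicate 2 and 3.74% higher on replicate 1. The summed signal of the list was 74188 on replicate 1 and 89807 on replicate 2.

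The 250 bases before the start of the 4 azurophil marker genes are shown because these are the granule genes that mark the cell type. They are from RefSeq on build GRCm38.p6, written 5′ to 3′ on the gene's strand, with GAGGAA, the core that PU.1 binds, and TTNNGNAA, a C/EBP-type sequence, in capitals on either strand.
Mpo, chr11:87793534-87793783, plus strand: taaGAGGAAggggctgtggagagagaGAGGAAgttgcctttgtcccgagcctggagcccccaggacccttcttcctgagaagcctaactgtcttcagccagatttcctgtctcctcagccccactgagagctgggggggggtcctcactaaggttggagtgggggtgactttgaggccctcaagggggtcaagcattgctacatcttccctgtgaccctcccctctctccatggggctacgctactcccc
Elane, chr10:79886062-79886311, plus strand: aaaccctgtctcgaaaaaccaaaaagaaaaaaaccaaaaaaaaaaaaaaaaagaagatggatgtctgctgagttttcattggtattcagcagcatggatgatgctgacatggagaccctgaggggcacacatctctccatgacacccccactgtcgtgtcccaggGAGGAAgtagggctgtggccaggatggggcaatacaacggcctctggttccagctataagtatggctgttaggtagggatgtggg
Prtn3, chr10:79879417-79879666, plus strand: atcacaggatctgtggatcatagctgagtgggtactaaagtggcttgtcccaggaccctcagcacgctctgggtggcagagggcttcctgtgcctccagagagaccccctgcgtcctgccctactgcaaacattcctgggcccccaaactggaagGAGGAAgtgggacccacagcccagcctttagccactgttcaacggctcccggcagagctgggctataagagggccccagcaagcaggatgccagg
Ctsg, chr14:56102575-56102824, minus strand: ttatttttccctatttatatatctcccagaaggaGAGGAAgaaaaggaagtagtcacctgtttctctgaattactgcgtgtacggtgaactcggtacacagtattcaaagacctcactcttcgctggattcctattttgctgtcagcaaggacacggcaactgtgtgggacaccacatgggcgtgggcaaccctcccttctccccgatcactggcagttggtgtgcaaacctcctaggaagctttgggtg
GAGGAA occurred in 4 of these 4 windows, and in 23.3% of all 32851 promoters of the same length. In Elane the match began 85 bases before the start and in Prtn3 95 bases before it, while Ctsg had a match 216 bases before it and Mpo matches 247 and 224 bases before it. TTNNGNAA occurred in 0 of the 4 windows and in 36.8% of all promoters. A match describes the letters and is no evidence that a factor was bound.

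Genes of secondary granules and neutrophil maturation lay higher on replicate 2. Of 20 measured members 14 were above the background level on both arrays (strict count 9), 17 had a higher signal on replicate 2, and 10 were over 2-fold higher there, against 1.58% of all genes, while 0 were over 2-fold higher on replicate 1, against 3.74%. The median log2 difference was 1.09 and the summed signal 19870 on replicate 1 and 44695 on replicate 2. The lactoferrin gene Ltf read 194.5 and 1717, a log2 difference of 3.07. The neutrophilic granule protein gene Ngp read 556 and 2573, the cathelicidin gene Camp 1050 and 3584, and the chitinase-like gene Chil3 855 and 3091. Lcn2, which codes for the iron-siderophore binding lipocalin 2, read 41.6 and 320, and Cd177, a neutrophil surface protein gene, 78.6 and 520. S100a8 and S100a9, the calprotectin genes, already ranked high on replicate 1, with 4031 and 6330, and read 10093 and 11738 on replicate 2. Some members showed no such difference. Cxcr2, a chemokine receptor gene of mature neutrophils, read 216 and 140, and Csf3r, the G-CSF receptor gene, 491 and 467. The collagenase gene Mmp8 was low, as was Mmp9, the gelatinase B gene, at 42.8 and 46.1. In bulk RNA fewer cells of a type or stage and less RNA per cell cannot be told apart, and the part of more mature cells in this difference was not tested.

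The same windows are shown for the 4 granule genes Ltf, Ngp, Camp and Lcn2, which were higher together on replicate 2, in the format used above.
Ltf, chr9:111019042-111019291, plus strand: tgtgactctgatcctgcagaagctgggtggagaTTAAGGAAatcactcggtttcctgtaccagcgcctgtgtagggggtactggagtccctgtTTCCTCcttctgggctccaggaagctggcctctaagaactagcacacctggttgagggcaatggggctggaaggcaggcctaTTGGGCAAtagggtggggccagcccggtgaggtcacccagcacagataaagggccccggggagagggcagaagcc
Ngp, chr9:110419558-110419807, plus strand: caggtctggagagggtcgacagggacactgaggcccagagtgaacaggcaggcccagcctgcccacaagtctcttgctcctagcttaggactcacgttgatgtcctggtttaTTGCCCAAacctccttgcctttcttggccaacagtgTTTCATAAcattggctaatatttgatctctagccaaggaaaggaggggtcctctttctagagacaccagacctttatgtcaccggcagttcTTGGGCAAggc
Camp, chr9:109849457-109849706, minus strand: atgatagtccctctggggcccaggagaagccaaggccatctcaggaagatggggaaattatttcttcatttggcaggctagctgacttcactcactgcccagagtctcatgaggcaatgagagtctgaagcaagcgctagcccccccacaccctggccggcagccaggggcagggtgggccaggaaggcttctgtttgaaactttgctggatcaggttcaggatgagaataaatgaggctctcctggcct
Lcn2, chr2:32387740-32387989, minus strand: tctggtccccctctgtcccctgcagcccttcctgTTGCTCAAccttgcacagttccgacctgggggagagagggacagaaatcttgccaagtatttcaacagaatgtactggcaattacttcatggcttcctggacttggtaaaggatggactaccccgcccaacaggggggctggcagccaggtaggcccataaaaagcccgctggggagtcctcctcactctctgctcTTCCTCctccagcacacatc
TTNNGNAA occurred in 3 of these 4 windows, with 3 matches in Ngp and 2 in Ltf, against 36.8% of all promoters. GAGGAA occurred in 2 of the 4, against 23.3%. Camp held neither sequence in this window.

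**Figure D2:**
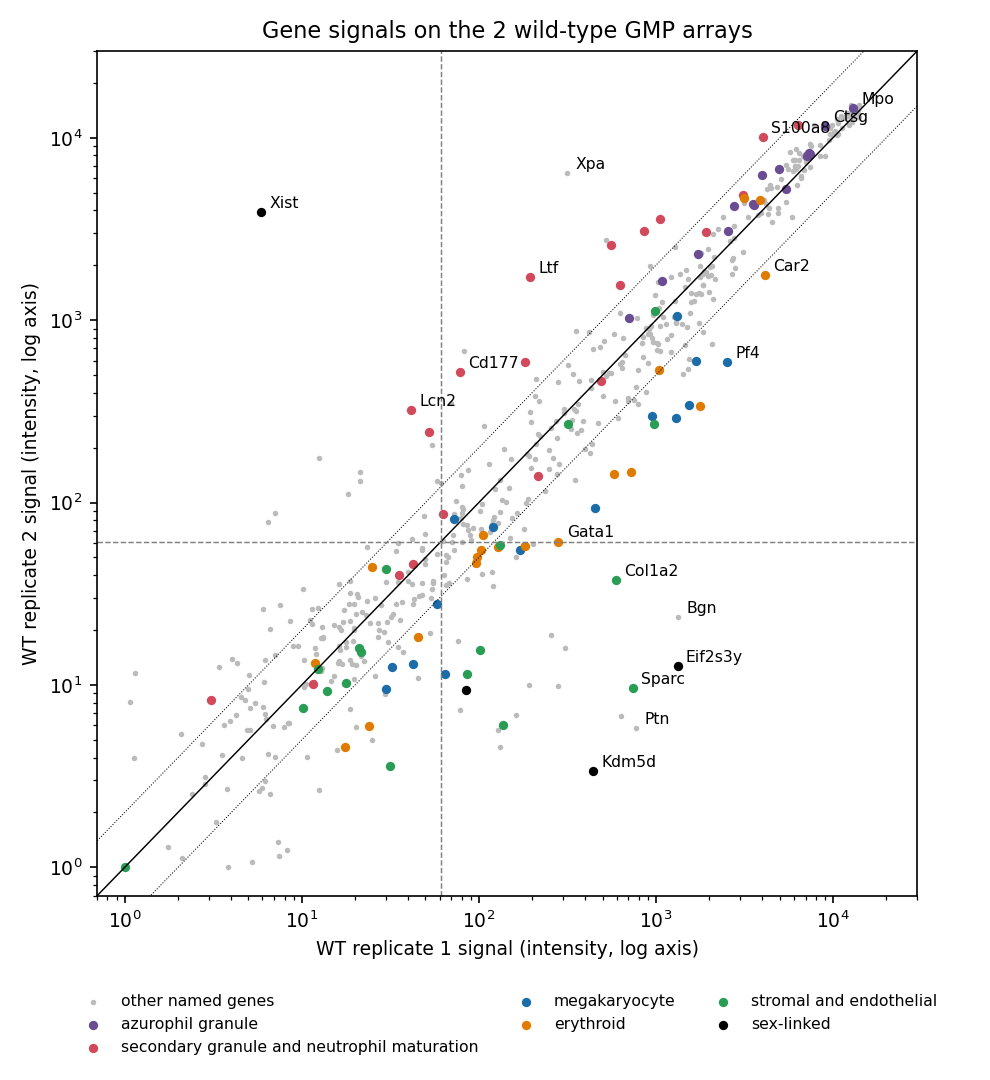
Signal of each named gene on WT replicate 1 (horizontal) against WT replicate 2 (vertical), both on log axes, with the line of equality, dotted lines at 2-fold and dashed lines at the background levels. Genes of the azurophil granule list lie close to the line of equality, most neutrophil maturation genes above it, and megakaryocyte and erythroid genes mostly below it.

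Monocyte and macrophage genes were split between clear and low signals. Of 23 measured members 14 were above the background level on both arrays (strict count 8), against 50.9% of all genes, and 9 on neither. F13a1, the coagulation factor gene of monocytes, read 6079 and 6888, and Emb 3160 and 4391. The macrophage colony-stimulating factor receptor gene Csf1r read 1490 and 915, Ctss, a lysosomal cathepsin gene, 1264 and 1036, and Ms4a6c 1059 and 935. Mpeg1, which codes for a pore-forming protein of macrophages, read 844 and 809, the lysosomal gene Cd68 148 and 120, and Adgre1, the gene of F4/80, 132 on both arrays. Other genes of mature macrophages were low. C1qa and C1qb of complement, Mrc1, Mertk, Marco, the endotoxin co-receptor gene Cd14 and the fractalkine receptor gene Cx3cr1 all lay below 47 on both arrays. The median log2 difference of the list was -0.04, and 0.05 after median centring, with Cd163, a scavenger receptor gene, over 2-fold higher on replicate 1 (426 and 186), as was the low IgG receptor gene Fcgr1 (45.5 and 10.9), and the adhesion gene Vcam1 over 2-fold higher on replicate 2 (422 and 860).

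Against 50.9% of all genes, 6 of 18 dendritic cell genes were above the background level on both arrays (strict count 3). These were Tcf4, a transcription factor of plasmacytoid cells, at 899 and 580, H2-Ab1, H2-Aa and Cd74 of antigen presentation by MHC class II, Bst2, and the growth factor receptor gene Flt3, at 164 and 87.7. The defining markers Siglech, Xcr1, Batf3, Zbtb46 and Cd209a were low on both arrays.

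Of 7 measured eosinophil genes 4 were above the background level on both arrays, against 50.9% of all genes. Prg2, the gene of eosinophil major basic protein, read 5863 and 3689, and Siglecf, an eosinophil surface lectin gene, 1294 and 975. The related granule gene Prg3 read 876 and 402, and the eosinophil peroxidase gene Epx 697 and 363. All 7 measured eosinophil genes were higher on replicate 1, with a median log2 difference of -0.92, against -0.04 over all genes. Past 2-fold were 2 of them, Prg3 and Alox15, against 3.74% of all genes. The interleukin-5 receptor gene Il5ra was above the background level on replicate 1 alone, at 85.7 and 38.2, and the eotaxin receptor gene Ccr3 was low on both arrays.

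Of 16 basophil and mast cell genes 8 were above the background level on both arrays, against 50.9% of all genes, and 8 on neither. The histamine-forming enzyme gene Hdc read 1840 and 1788, the IgE receptor chain genes Ms4a2 and Fcer1a 1584 and 1415, and 211 and 210, and the basophil protease gene Mcpt8 1291 and 965. None of these differed over 2-fold. The carboxypeptidase gene Cpa3, at 1526 and 537, and the transcription factor gene Gata2, at 1533 and 615, were over 2-fold higher on replicate 1. The proteases of tissue mast cells, Mcpt1, Mcpt2, Mcpt4, Cma1, Tpsab1 and Tpsb2, were low on both arrays, at 42.1 or less.

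Megakaryocyte and erythroid genes gave higher signals on replicate 1. Of 15 megakaryocyte genes 9 lay above the background level on both arrays (strict count 5), against 50.9% of all genes. Of the 15, 14 were higher on replicate 1 and 10 were over 2-fold higher there, against 3.74% of all genes. Pf4, the platelet factor 4 gene, read 2516 and 590, the membrane-bending gene Cavin2 1543 and 341, and the thrombin receptor gene F2r 1294 and 292. Itga2b, the platelet integrin gene, read 456 and 93.6. The median log2 difference was -1.48 and the summed signal 10348 on replicate 1 and 3542 on replicate 2. Genes of the platelet receptor for von Willebrand factor were at or near background, with Gp5 and Gp1bb low on both arrays and Gp9 at 72.1 and 81.4.

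Among 19 erythroid genes 9 were above the background level on both arrays (strict count 5), against 50.9% of all genes, and 5 on replicate 1 alone, against 3.22%, so that 14 were above it without replicate 2. The median log2 difference was -0.95, and 8 members were over 2-fold higher on replicate 1, against 3.74% of all genes. The erythroid transcription factor gene Gata1 read 282 and 61.1, close to the background level on replicate 2. The carbonic anhydrase genes Car1 and Car2 read 578 and 143, and 4116 and 1773, and Hemgn, a nuclear protein gene of erythroid progenitors, 1774 and 340. Tfrc, the transferrin receptor gene of dividing cells, went the other way, at 3158 and 4677. The heme synthesis gene Alas2 and the Rhesus genes Rhag and Rhd were low on both arrays, and the anion exchanger gene Slc4a1 read 96.9 and 46.5. The alpha-globin genes disagreed between their probe sets, with Hba-a2 at 3863 and 4534 and Hba-a1 at 11.9 and 13.1. They are nearly identical in sequence, so their signals cannot be assigned.

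**Figure D3:**
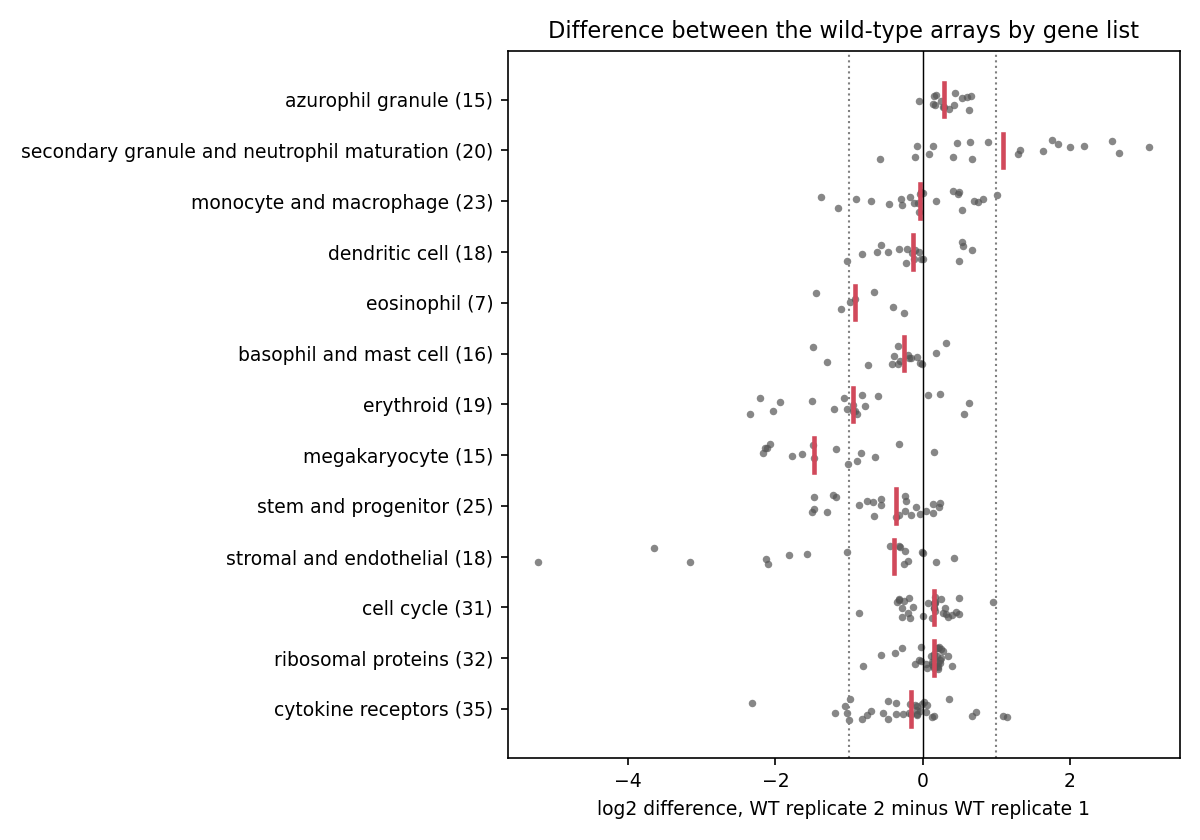
Log2 difference of each measured gene, WT replicate 2 minus WT replicate 1, by gene list (number of members in brackets), with the list median as a red bar and dotted lines at 2-fold. The medians are 1.09 for neutrophil maturation, -1.48 for megakaryocyte and -0.95 for erythroid genes. They are 0.15 for cell cycle and 0.16 for ribosomal protein genes.

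Stem and progenitor genes were widely measured. Of 25 members 21 were above the background level on both arrays (strict count 13), against 50.9% of all genes. Myb, a transcription factor gene of proliferating progenitors, read 6851 and 6679, and Lmo2, an adaptor of blood transcription factors, 6591 and 6176. Hoxa9 read 1842 and 1566 and its partner gene Meis1 796 and 347. Erg, an ETS transcription factor gene of stem cells, read 2679 and 1800. Mecom, also known from stem cells, read 129 and 77.4, the protein C receptor gene Procr 377 and 250, and the signalling lymphocyte antigen gene Slamf1 was low on both arrays. In all, 20 members were higher on replicate 1, with a median log2 difference of -0.37, against -0.04 over all genes. The angiopoietin gene Angpt1, at 1428 and 505, was 1 of 6 members over 2-fold higher there, against 3.74% of all genes. Of the other HoxA genes Hoxa3 was above the background level on both arrays (121 and 80.7), while Hoxa2, Hoxa4, Hoxa5, Hoxa7, Hoxa10, Hoxa11 and Hoxa13 were low.

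Lymphoid genes were mostly low. Of 17 T and NK cell genes 2 were above the background level on both arrays (strict count 0), the perforin gene Prf1 at 249 and 193 and Bcl11b at 103 and 71.4, and the CD3 genes Cd3d, Cd3e and Cd3g lay between 9.57 and 22.6. Of 16 B lymphoid genes 6 were above it (strict count 0), against 50.9% of all genes. The pre-B cell receptor genes Vpreb1 and Igll1 read 187 and 185, and 119 and 76.6, the receptor chain genes Cd79b 302 and 327 and Cd79a 71.9 and 66.3, the immunoglobulin heavy chain gene Ighm 333 and 254, and Dntt, the terminal transferase gene, 150 and 64.3. Also low on both arrays were Pax5, Blnk and Ms4a1 of the B lineage and the lymphoid genes Rag1 and Rag2.

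Several connective tissue genes were above the background level on replicate 1 alone. Of 18 stromal and endothelial genes 3 were above the background level on both arrays (strict count 1) and 6 on replicate 1 alone, against 3.22% of all genes, so that 9 were above it without replicate 2. Sparc, a matrix glycoprotein gene, read 740 and 9.63, and the collagen genes Col1a2 596 and 37.7, Col1a1 131 and 58.8 and Col3a1 137 and 6.03. The summed signal of the list was 4230 on replicate 1 and 1915 on replicate 2. The markers Cxcl12 and Lepr of marrow stroma and Cdh5 and Kdr of endothelium were low on both arrays. Other members were not. Pdgfrb read 974 and 270 and Pecam1 320 and 269, both above the background level on both arrays. Pdgfra, at 85.8 and 11.5, and Dcn, at 102 and 15.6, were above it on replicate 1 alone. Vegfa, also made by myeloid cells, read 985 and 1118. The median log2 difference over all 18 members was -0.38, with 9 of them low on both arrays. It was -1.96 over the 10 members past a filter on mean signal at its 40th percentile. Members high on replicate 1 alone can pass that filter through that array, so the larger size depends in part on the filter. The part of stromal RNA in the megakaryocyte, erythroid and stem cell differences was not tested.

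**Figure D4:**
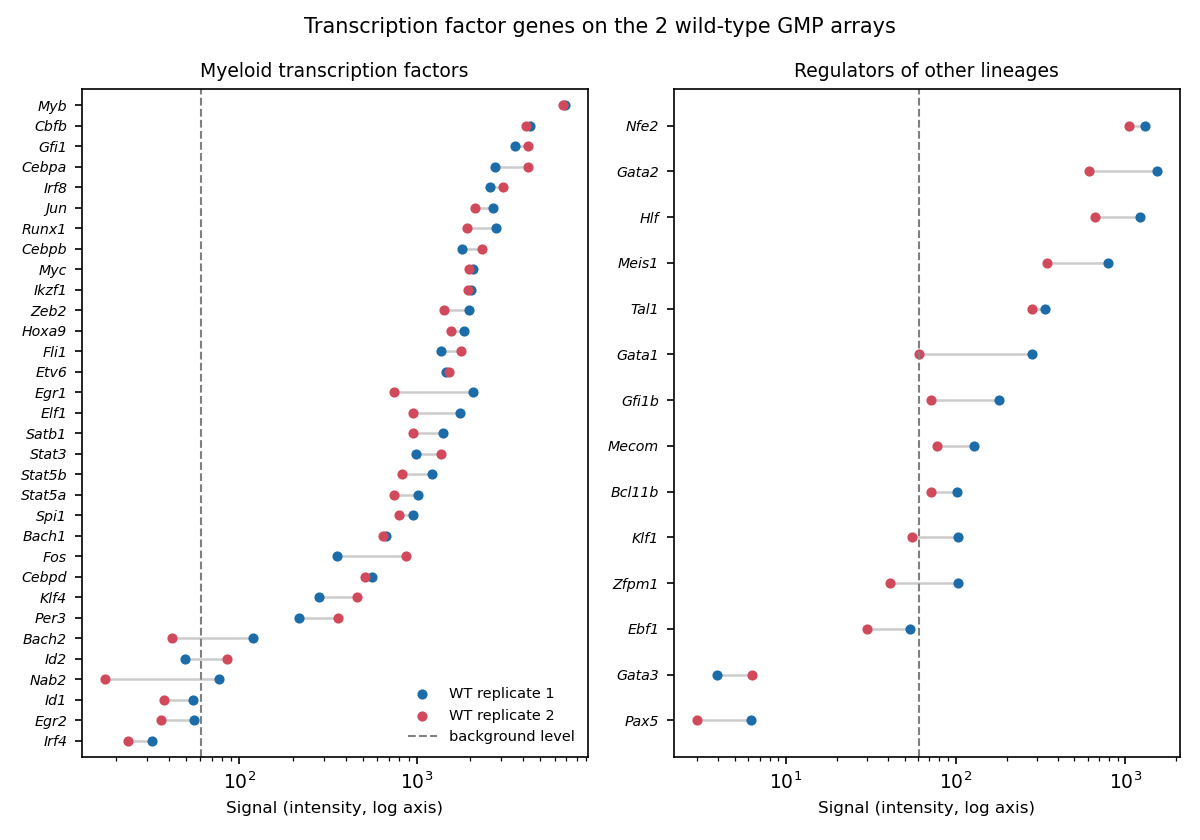
Signals of 32 myeloid transcription factor genes (left) and 14 regulators of other lineages (right) on both WT arrays, on log axes, with the background level as a dashed line. Genes are ordered by their mean over both arrays, with Myb, Cbfb, Gfi1, Cebpa and Irf8 first on the left, and Irf4, Pax5 and Gata3 lie left of the line on both arrays.

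Transcription factors of the myeloid program were nearly all measured. Of 32 genes 26 were above the background level on both arrays. Gfi1, a repressor that favours granulocytes, read 3591 and 4273, Cebpa, the gene of C/EBP alpha, 2759 and 4229, and Irf8 2588 and 3052. Another Irf8 probe set read 507 and 704. Spi1, the gene of PU.1, read 949 and 798, the core binding factor genes Cbfb and Runx1 4372 and 4144, and 2816 and 1921, and Cebpb 1798 and 2343. Zeb2 read 1985 and 1429 and Klf4, a monocyte regulator, 280 and 460. Low on both arrays were Irf4, at 32.1 and 23.5, Egr2 and the inhibitor of DNA binding gene Id1. Of the 8 measured IRF family genes 7 were above the background level (strict count 4). After Irf8 came Irf3 at 1022 and 1623, Irf1 at 1137 and 948, Irf5 at 579 and 842, Irf9 at 197 and 154 and Irf2 at 132 and 88.4, with Irf7 near background at 62.7 and 61.8.

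Among 14 regulators of other lineages 13 were higher on replicate 1. Their median log2 difference was -0.72, against -0.04 over all genes. Against 50.9% of all genes, 9 were above the background level on both arrays (strict count 4). Besides Gata2 and Gata1 these included Nfe2 at 1312 and 1049, Hlf, a transcription factor gene of stem cells, at 1222 and 666, Tal1 at 338 and 284 and the repressor gene Gfi1b at 181 and 71.5. The erythroid factor gene Klf1, at 103 and 55.3, and the GATA partner gene Zfpm1, at 104 and 40.9, were above it on replicate 1 alone. Pax5 and Gata3 of B and T cells were low.

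Of 35 cytokine receptor genes 25 were above the background level on both arrays (strict count 13), 3 on replicate 1 alone and 7 on neither. The interleukin-17 receptor gene Il17ra read 3933 and 3893, the interferon gamma receptor gene Ifngr1 2773 and 2815, and the tumour necrosis factor receptor gene Tnfrsf1b 2124 and 2218. Each of these was nearly equal on the arrays. Receptors for the myeloid growth factors followed. Csf2rb, the chain that GM-CSF, interleukin-3 and interleukin-5 share, read 1480 and 1891, and Csf2ra, the GM-CSF-specific chain, 906 and 841. Il3ra read 283 and 163, Il6ra 612 and 290, and Il6st, its signalling partner, 429 and 468. The oncostatin M receptor gene Osmr read 78.3 and 7.30 and the erythropoietin receptor gene Epor 128 and 57.2, both above the background level on replicate 1 alone. Il2ra, Il2rb, Il7r, Il9r, Il13ra1, Lifr and Ghr were low on both arrays.

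Chemokine receptors showed the reverse, with 4 of 17 genes above the background level on both arrays (strict count 1). Cxcr4, which retains cells in the marrow, stood far above the rest at 3783 and 3794. Ccr2, the receptor gene of inflammatory monocytes, read 318 and 569, Cxcr2 216 and 140 and Ccr10 92.5 and 72.8. Ccr9 was above it on replicate 1 alone. Ccr1, Ccr3, Ccr4, Ccr6, Ccr7, Ccr8, Cxcr3, Cxcr5, Cxcr6, Cx3cr1, Xcr1 and Ackr3 were low.

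Toll-like receptors and their adaptors were above the background level on both arrays in 9 of 19 genes (strict count 2), near the 50.9% of all genes. Tlr4, the endotoxin receptor gene, read 211 and 477, the 1 member over 2-fold higher on replicate 2, against 1.58% of all genes. Tlr2 read 61.0 and 128. Ly86 and Cd180, whose proteins form a complex related to TLR4, read 625 and 575, and 400 and 197. The adaptor gene Myd88 read 366 and 467 and Unc93b1, needed by the receptors of endosomes, 273 and 278. Tlr1, Tlr3, Tlr5, Tlr6, Tlr8, Tlr9 and Tlr13 were low on both arrays, as were the TLR4 partners Cd14 and Ly96.

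Of 20 genes of integrins and other adhesion molecules 17 were above the background level on both arrays (strict count 11). Cd47, the signal that blocks phagocytosis, read 7001 and 7340, Cd44 2041 and 1761, the integrin genes Itga4 1921 and 1846 and Itgal 1102 and 1035, and Itgb2, the partner gene of Itgal, 964 and 1065. Itgam and Itgax, whose products mark mature myeloid cells, were low, as was Itga2.

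**Figure D5:**
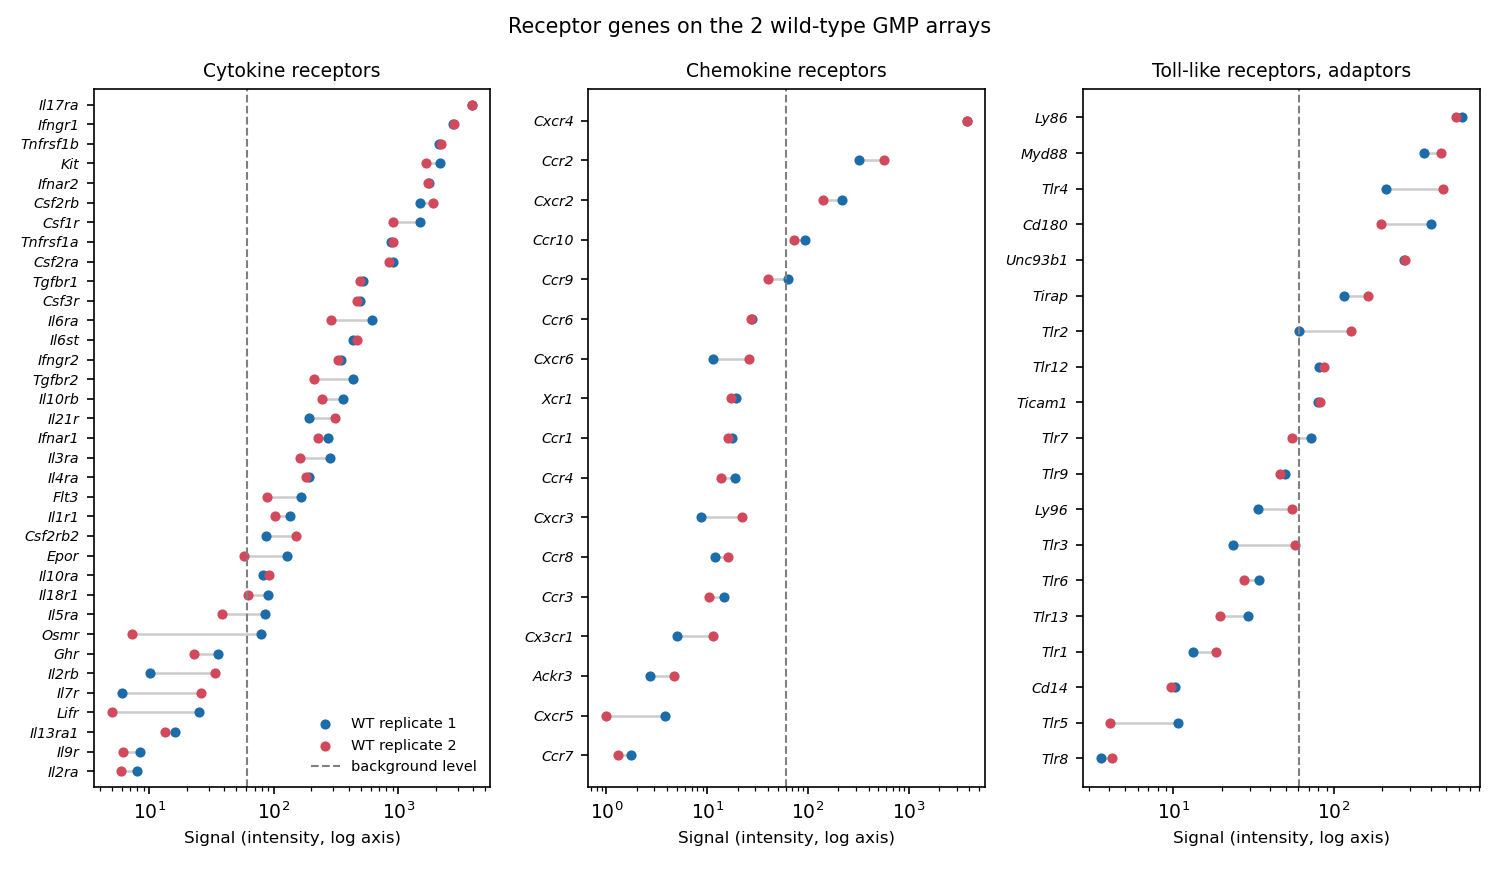
Signals of 35 cytokine receptor, 17 chemokine receptor and 19 Toll-like receptor and adaptor genes on both WT arrays, on log axes, with the background level as a dashed line. Most cytokine receptor genes lie right of the line, most chemokine receptor genes left of it, and Cxcr4 stands apart.

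Genes of DNA replication and mitosis were high and even. All 31 measured cell cycle genes were above the background level on both arrays, with a median percentile of 95.3 and 96.2. Of them 0 differed over 2-fold, against 1.58% of all genes higher on replicate 2 and 3.74% higher on replicate 1. The helicase gene Mcm6 read 9043 and 7896, the proliferation antigen gene Mki67 6576 and 6024, the ribonucleotide reductase gene Rrm1 5962 and 7553 and the polymerase clamp gene Pcna 5581 and 6764. The D-type cyclin genes differed in signal, with Ccnd2 at 5435 and 4464, Ccnd3 at 1040 and 1165 and Ccnd1 at 692 and 373. Of 10 cell cycle inhibitor genes 7 were above the background level. Cdkn2d read 1794 and 1385, Cdkn1b, the gene of p27, 1050 and 676, and Cdkn1a, the gene of p21, 350 and 133. Cdkn2a, Cdkn2b and Cdkn1c were low, at 9.45 or less.

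Survival genes were led by Bcl2, at 4287 and 3822, and Mcl1, at 4510 and 3462. Of the 13 measured BCL2 family genes 11 were above the background level on both arrays (strict count 7), and Bcl2l1, the gene of BCL-XL, read 1468 and 732. Interferon-stimulated genes were modest. Of 17 members 11 were above it (strict count 2), against 50.9% of all genes. The list was led by Oas1a at 486 and 711 and Ifit2 at 547 and 513, while Mx1, Mx2, Usp18 and Cxcl10 were low. Immediate early genes went both ways between the arrays. Egr1 read 2077 and 740 and Ier3 1836 and 856, whereas Fos read 355 and 870 and Fosb 54.6 and 207. Jun read 2683 and 2128 and Jund 1870 and 1872. Of 23 members 15 were higher on replicate 1 and 8 on replicate 2. The median log2 difference was -0.06, and 0.06 after median centring, so its sign depended on scaling.

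Across the array 27022 probe sets passed a filter on their mean signal, and their median log2 difference was -0.01. Of these, 652 (2.41%) were over 2-fold higher on replicate 2 and 1008 (3.73%) over 2-fold higher on replicate 1. The share from both directions was 9.37% in the second of 4 equal groups of probe sets by signal and 1.23% in the brightest. Of 12060 genes past the filter 77.6% lay within 1.5-fold. The split between directions depended on scaling, since 39.3% of the probe sets past 2-fold were higher on replicate 2 as deposited, 48.1% after quantile normalization and 57.0% after median centring.

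The largest difference in each direction was of a sex-linked gene, and the 4 measured sex-linked genes matched the labelled sexes. Xist, the RNA that coats the inactive X chromosome, read 5.90 on the male and 3930 on the female array, at least 64.5-fold higher against the background level. The Y-linked genes Eif2s3y and Kdm5d read 1325 and 12.7, and 442 and 3.37. Uty read 84.3 and 9.41.

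Among the other genes furthest above replicate 2 on replicate 1 were many of matrix and mesenchymal cells. The heparin-binding growth factor gene Ptn read 774 and 5.78, at least 12.8-fold higher against the background level, the proteoglycan gene Bgn 1330 and 23.5, the adrenomedullin gene Adm 634 and 6.76 and the collagen cross-linking enzyme gene Lox 306 and 16.0. Sparc, Col1a2, Col3a1, Ptx3, Flnc, Cald1, Cpe, Rhox5 and Rdh9 completed, with Eif2s3y and Kdm5d, the 15 largest differences in this direction. Other probe sets of Ptn, at 257 and 1.52, Bgn, at 532 and 26.2, and Lox, at 176 and 7.34, showed the same direction. A second Adm probe set was low on both arrays, at 3.66 and 5.68, as were the other Sparc probe sets, at 27.8 and 2.51, and 5.61 and 10.2.

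Genes highest on replicate 2 after Xist included several of neutrophils. The neutrophil genes Ltf, Lcn2, Cd177 and Ngp were joined by Lrg1, a secreted granule glycoprotein gene, at 82.0 and 680, and the myeloid lectin gene Clec5a at 69.7 and 350. Other genes are not known for a part in granules. The DNA repair gene Xpa read 315 and 6376 by its brightest probe set, but 69.7 and 23.1, and 25.6 and 41.0, by 2 others. Eml2, a microtubule-associated protein gene, read 523 and 2768 by its 1 probe set. The immunoglobulin kappa probe sets Igkv8-30, at 12.6 and 176, and Igk, at 6.49 and 78.4, and Stox2, Mgl2, Med16 and B430306N03Rik lay above the background level on replicate 2 alone. The other 3 Igk probe sets and the other 5 of Stox2 were low on both arrays, with 1 of Stox2 higher on replicate 1 at 38.5 and 14.2.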

How the data were processed

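GMP RNA was measured on 6 Affymetrix Mouse Genome 430 2.0 arrays, of which the 2 WT arrays are described here. The authors deposited 1 linear intensity per probe set, from the PM/MM difference model of dChip 1.3, per the labels and design text. For the baseline array and the treatment of low values the sources used here give nothing; 878 and 838 probe sets of the WT arrays were at exactly 1. Arrays carry no read depth, so their number limits the precision.

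From these, log2(value + 10.5) was computed, the pseudocount being the 25th percentile of all values, which understates differences of low genes. Probe sets were filtered on the mean of both arrays (above its 40th percentile) for counts of differences and for the 15 genes per direction. List counts and medians used every measured member. Where 1 array was at or below background, a fold is a bound against that level. Of 45037 probe sets, 34945 had 1 symbol, 932 several and 9160 none in GEO's platform annotation, set against RefSeq of GRCm38.p6. Named were the markers, the 25 leading genes, the 15 largest differences per direction, sex-linked genes and list members. The members and lists were chosen with earlier results of these data known. Counting was checked on simulated data (Python 3.11.15, numpy 2.4.6, pandas 2.3.3). Alternatives were other background levels, pseudocounts, filters, scalings, probe set rules, a 3-fold limit and leaving out each array.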

Additional observations from a re-analysis of the deposited data

How the results depend on the processing

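No paired analysis was possible because no result comes from a test. Of 633 alternatives, 538 kept their value within the limits used, 95 did not, and 0 turned a difference over 2-fold to the other direction. The limit was 1.5-fold for counts. For list medians and gene differences it was a change of up to the value's size divided by the square root of 2. A much smaller value could thus count as kept. Only list medians of at least 2-fold and the 30 genes with the largest differences could count as turned. That count of 0 therefore says little of the other results. Genes above the background level on both arrays numbered 5854 with the 99th percentile of background probe sets, where list counts also dropped as given beside them, and 9553 to 9851 when either array was left out. T and NK cell genes above it were 0 with the 99th percentile, 4 with olfactory receptors alone, 1 with other organs alone and 1 with the median over probe sets; chemokine receptors were 1 with the 99th percentile. Leaving out either array gave 2 to 3 T and NK cell genes and 4 to 5 chemokine receptors. Probe sets over 2-fold higher on replicate 2 and on replicate 1 were 289 and 506 with a pseudocount at the median of all values (39.2), 375 and 549 with a filter at the 60th percentile, and 102 and 211 past 3-fold. Median centring gave 978 and 737, and quantile normalization 795 and 859, so which direction led depended on scaling. The stromal and endothelial median was -1.96 and -1.42 with filters at the 40th and 60th percentile, since both remove its low members. Members high on replicate 1 alone can pass these filters, so both sizes depend in part on that array. The top 50 genes shared 39 and the top 500 shared 419. Signs of 10 list medians with sizes up to 0.22 changed under at least 1 alternative, among them monocyte, myeloid transcription factor and chemokine receptor genes.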

Other observations

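Further gene groups, listed after the values were seen, were read on the same arrays. Of 17 listed glycolysis genes 14 were measured, all above the background level on both arrays, against 50.9% of all genes. Higher on replicate 2 were 10 of the 14. Of the housekeeping list 13 of 14 members were higher there, but it holds glycolysis genes such as Ldha and is no separate comparison. In the ribosomal protein list 24 of 32 members were higher there, so this lean was not particular to glycolysis. The lactate dehydrogenase gene Ldha read 7831 on replicate 1 and 11684 on replicate 2, the phosphoglycerate kinase gene Pgk1 6145 and 8723, and the glucose transporter gene Slc2a3 704 and 418. Subunits of the phagocyte NADPH oxidase were also all above it, in 6 of 6 genes. The catalytic subunit gene Cybb read 631 and 1559, while its partner gene Cyba, at 2443 and 3313, and Ncf4, at 1275 and 1318, differed less. Of 25 chromatin genes 24 were above it on both arrays, led by the maintenance DNA methyltransferase gene Dnmt1 at 5721 and 5542. The polycomb genes Suz12, Eed and Ezh2 read 2753 and 3269, 2216 and 2899, and 2256 and 1966.

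Ligand genes were mostly low. Of 40 measured cytokine, chemokine and growth factor genes 13 were above the background level on both arrays and 23 on neither. The chemokine gene Ccl9 read 3630 and 3614, Tgfb1 602 and 675, Il16 740 and 577, and the oncostatin M gene Osm 393 and 266. Ccl3 read 261 and 141 and Ccl4 219 and 47.6. The colony-stimulating factor genes Csf2 and Csf3 and the cytokine genes Il1b, Il6 and Tnf were low on both arrays.

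Among the genes of other organs that set the background level, 5 of 67 measured lay above it on both arrays. The myelin basic protein gene Mbp read 2105 and 1302, Krt10 387 and 281, and Pmch 302 and 309.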
